A study of Mus musculus with 8 samples.

Results

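Bicd1 on chromosome 6 and the tandem pair Chil3 and Chil4 on chromosome 3 were followed through the first cell cycle of activated mouse B cells, as contacts between neighbouring 50 kb bins of in situ Hi-C maps. These are 3 of 21951 protein-coding genes placed in bins. They were chosen because contacts between neighbouring bins over them were stronger at imminent division than at 10 h, so their values in that contrast are given as a description, and nothing is drawn from a call there. Each locus was taken as the bins over the genes with 1 Mb on each side. Bicd1 covered 4 bins in a window of 25 bins and 10 protein-coding genes, and Chil3 with Chil4 covered 3 bins in a window of 43 bins and 28 protein-coding genes. The comparison of pre-S with 3 h uses neither group of that contrast, and it carried the tests. It is not free of the choice. Pre-S is also a group at 33 h, and the members were chosen with earlier results of these data known. The filter, the offsets and the spread came from all 8 libraries.

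In Hi-C, crosslinked chromatin is cut, nearby ends are ligated and the junctions are sequenced, so that the number of read pairs joining a pair of bins rises with how often they meet in the nucleus. Contacts between neighbouring bins are the shortest-range signal off the diagonal of such a map, and they also rise where a bin yields more read pairs of every kind (its coverage). Bicd1 encodes a Bicaudal D protein, an adaptor that joins cargo to the microtubule motor dynein and its activator dynactin. Chil3 and Chil4 encode Ym1 and Ym2, secreted chitinase-like proteins of the glycoside hydrolase 18 family that bind sugars without cutting chitin. They are known mainly as products of myeloid and epithelial cells. RNA was not analysed here, so neither the expression of the 3 genes nor the markers of the sorted cells could be checked here.

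The cells were naive splenic B cells of male mice aged 6 to 12 weeks, isolated by negative selection, labelled with the division dye CellTrace Violet (CTV) and cultured with 25 μg/ml of LPS, a bacterial activator of B cells. All groups were sorted on surface markers that included CD69+ and TCRβ-, and for the highest CTV, which marks cells that had not divided. The 3 h, 10 h and imminent division (33 h) groups came from C57BL/6 mice. The pre-S group, also at 33 h, came from C57BL/6 mice carrying the FUCCI cell-cycle reporters and was gated in addition on mKO2 high, mAG negative cells, which are in G1. The methods place all mice on a Pep3b background. Reporter genotype and gate therefore cannot be told apart from the pre-S group. Each group had 2 replicates, prepared as biological duplicates per the methods, and whether cells of several mice were pooled is not given in the sources used here. Totals ran from 88703088 to 218945191 read pairs per library. The second imminent division library stood apart on the sex chromosomes, with 3.74% of read ends on X and 0.0490% on Y against 2.39% to 2.84% and 0.0804% to 0.123% in the other 7, a higher X and lower Y share that goes against male mice alone for this library, and its source was not tested. Only autosomes entered the comparisons, and the changes that define the loci are given with and without that library.

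In GRCm38, Chil3 lies at chr3:106147554-106167564 and Chil4 at chr3:106201490-106219507, both on the minus strand and 33.926 kb apart. The Chil3 start falls in the bin chr3:106150126-106200059 and the Chil4 start in the next, chr3:106200056-106250291, so the contact between these bins joins the pair of genes. Bicd1 lies at chr6:149408886-149563329 on the plus strand and is 154.444 kb long. Its bins are, in the direction of transcription, chr6:149399855-149450039, chr6:149450036-149499849, chr6:149499846-149549377 and chr6:149549374-149586000, called the first to the fourth Bicd1 bin below. The gene ends 173.217 kb before the end of chromosome 6 as assembled. The single bin beyond it, of 150.55 kb, holds 150 kb of undetermined bases and was left out, so the Bicd1 window has no bins on its distal side.

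The bins were cut at sites of MboI. The border of the first and the second Bicd1 bin, which are described most, is shown with the cutting site at the border in capitals, on the plus strand of GRCm38, and a further MboI site near the end of the stretch is left in lower case. It lies at chr6:149450006-149450069, in an intron of Bicd1.
Bicd1 border: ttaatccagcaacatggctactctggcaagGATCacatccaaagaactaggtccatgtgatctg

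Stretches before the RefSeq starts of the genes are shown because Chil3 and Chil4 are near copies of each other, which may bear on how reads are placed. They are from RefSeq on GRCm38.p6, 5′ to 3′ on the strand of each gene, with TATAAA in capitals. The Chil3 stretch is chr3:106167565-106167814 and the Chil4 stretch chr3:106219480-106219729, each of 250 bases. The last bases of the Chil4 stretch lie inside the gene as placed above, since its RefSeq start lies further in. The Bicd1 stretch, chr6:149408734-149408885, stops at the GENCODE start of the gene, which lies before the RefSeq start.
Chil3 upstream: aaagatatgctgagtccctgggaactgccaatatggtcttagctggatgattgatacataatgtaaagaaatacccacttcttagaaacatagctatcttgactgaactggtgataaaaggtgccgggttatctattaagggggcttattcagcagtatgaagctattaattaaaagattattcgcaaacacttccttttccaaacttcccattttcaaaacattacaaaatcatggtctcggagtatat
Chil4 upstream: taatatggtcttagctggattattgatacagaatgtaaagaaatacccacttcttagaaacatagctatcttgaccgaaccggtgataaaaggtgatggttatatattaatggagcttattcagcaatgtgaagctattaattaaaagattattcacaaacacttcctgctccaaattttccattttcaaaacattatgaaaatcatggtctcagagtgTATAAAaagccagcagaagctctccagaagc
Bicd1 upstream: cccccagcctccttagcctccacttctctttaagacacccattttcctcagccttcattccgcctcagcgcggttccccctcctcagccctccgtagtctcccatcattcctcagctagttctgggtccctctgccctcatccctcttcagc

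Of the 250 Chil4 bases 88.4% aligned to the Chil3 bases, at 90.5% identity. Over the whole genes, 85.4% of Chil4 aligned to Chil3 at 89.1% identity, and 54.9% of the Chil4 start bin aligned to the Chil3 start bin at 86.7%. Whether read pairs with ends in such stretches were placed in the other copy or lost by the mapping filter was not measured. The split between Chil3 and Chil4 carries that limit. TATAAA, searched on both strands, had 1 match in the Chil4 stretch, 31 bases before the RefSeq start, and 0 in those of Chil3 and Bicd1. The Chil3 stretch stops partway along the bases that line up with this match, so its 0 depends on where RefSeq places the start. It was found in 12.4% of the upstream stretches of 32851 promoters. The 250 bases before the RefSeq start held 8 CG in Bicd1 at 59.6% GC, 3 in Chil3 and 2 in Chil4 at 36.4% and 34% GC, against a median of 6 over all promoters.

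Contacts between the Chil3 and Chil4 start bins were higher in every library at 33 h than in every library at 3 h and 10 h. Counts adjusted by the loess offsets (read pairs per bin pair, brought to a common depth and abundance trend) were 566 and 519 (3 h), 488 and 527 (10 h), 876 and 764 (imminent division) and 716 and 663 (pre-S). The group means were 543 ± 33.3, 508 ± 27.5, 820 ± 79.3 and 690 ± 37.9 (SD, n = 2 each). The imminent division libraries lay above the pre-S libraries, and the libraries at 3 h and 10 h overlapped. The deposited counts behind them were 401 and 707, 464 and 610, 991 and 1124, and 589 and 456 read pairs in the same order.

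Bicd1 showed the same order of groups at a lower level. Between its first and second bins the adjusted counts were 128 and 136 for 3 h, 114 and 112 for 10 h, 238 and 204 for imminent division, and for pre-S 173 and 203, from 80 to 337 deposited read pairs. The lower imminent division library and the higher pre-S library were nearly equal, and both 10 h libraries lay below both 3 h libraries. Between the second and the third bin the adjusted counts were 97.5 and 118, 88.7 and 104, 191 and 178, and 148 and 147 in the same order of groups. Between the third and the fourth bin they were 119 and 115, 102 and 109, 192 and 198, and 145 and 185. In all 3 bin pairs every library at 33 h lay above every library at 3 h and 10 h in these loess-adjusted counts. Adjusted instead for the product of the interchromosomal coverages of both bins, the first pre-S library lay below the first 3 h library in all 3. The counts were 151 against 158, 123 against 124, and 127 against 148.

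**Figure D1:**
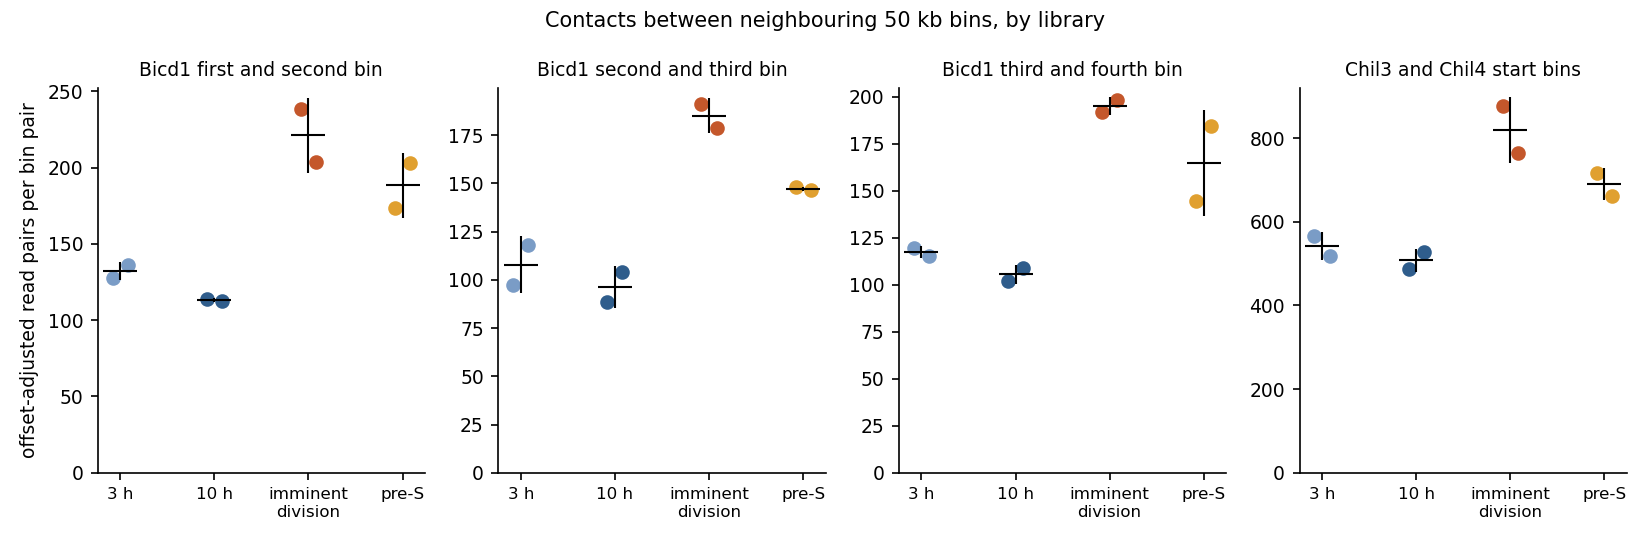
Offset-adjusted read pairs (linear axis from 0) between neighbouring 50 kb bins for 3 bin pairs of Bicd1 and for the Chil3 and Chil4 start bins, with 1 point per library and the mean ± SD of each group of 2 as bars. In all 4 panels the libraries at 33 h sit above those at 3 h and 10 h, with imminent division at or above pre-S.

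In the contrast that chose the loci, imminent division against 10 h, the log2 changes were 0.96 between the first and the second Bicd1 bin, 0.93 between the second and the third, and 0.88 between the third and the fourth. In this loess fit these are the 3 largest increases among 47081 pairs of neighbouring bins tested, whose median change was 0.01, and the Chil3 and Chil4 start bins ranked as number 7, at 0.68. Without the second imminent division library, which stood apart on the sex chromosomes, the change was 1.07 for the first Bicd1 pair and 0.78 for Chil3 and Chil4. The first Bicd1 bin with the bin before it had 0.50, and the Chil4 start bin with the bin after it 0.58.

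The same contrast was also described with the coverage of the bins allowed for. Coverage was measured as the interchromosomal read pairs of a bin, which do not include the local contacts. With the product of the coverages of both bins in the offsets, the 3 Bicd1 changes between imminent division and 10 h were 0.74, 0.69 and 0.80, and that of Chil3 and Chil4 was −0.06. With the geometric mean of the coverages, a smaller allowance, they were 0.85, 0.81 and 0.84 for Bicd1 and 0.31 for Chil3 and Chil4. TMM factors, which use 1 scaling factor per library, gave 0.78, 0.79 and 0.73 for Bicd1 and 0.21 for Chil3 and Chil4, while lowering the median of all neighbouring bins to −0.19. By rank, the 3 Bicd1 pairs were numbers 23, 38 and 10 with the product, 5, 7 and 6 with the geometric mean and 2, 1 and 3 with TMM factors, and Chil3 and Chil4 number 28466, 1455 and 824. In balanced matrices every bin is brought to the same total, and each value was divided by the mean of neighbouring bins on its chromosome. The log2 ratios of the group means were then 0.47, 0.38 and 0.43 for Bicd1 and 0.29 for Chil3 and Chil4.

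**Figure D2:**
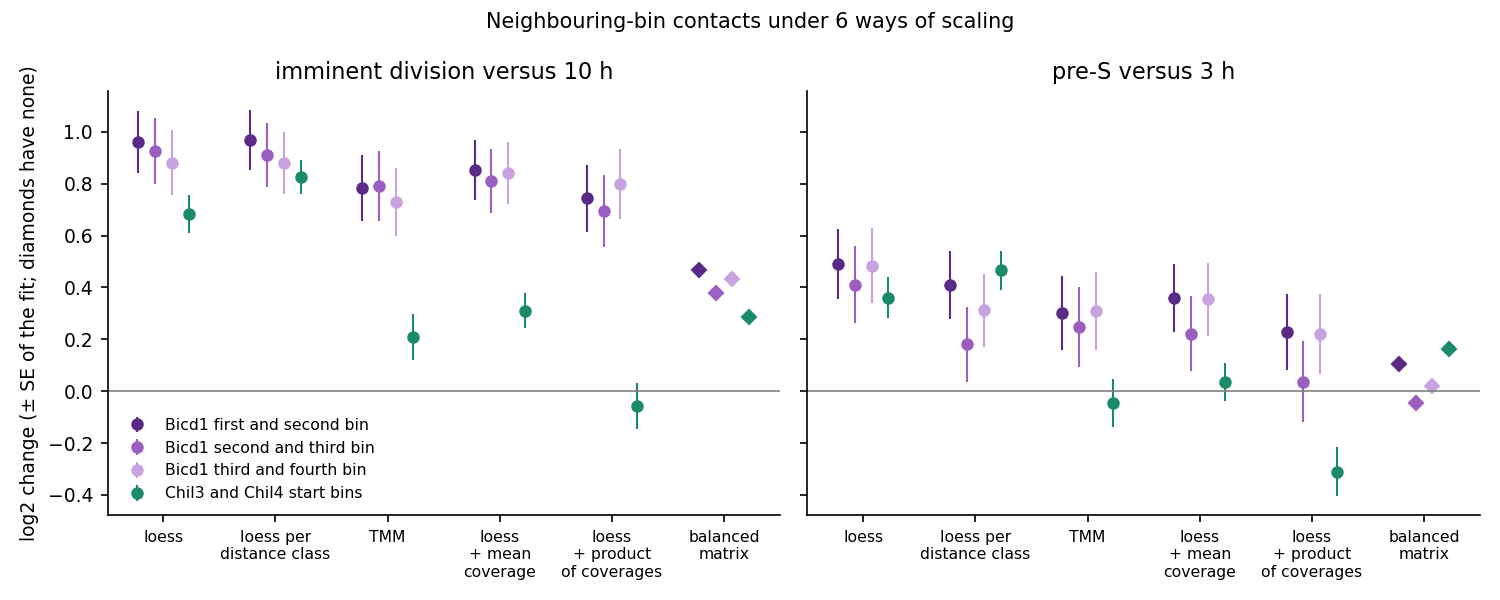
Log2 change of contacts between neighbouring bins under 6 scalings, for imminent division versus 10 h and pre-S versus 3 h. Points are the fitted change ± SE. Diamonds, which have no SE, are ratios from balanced matrices, over the chromosome mean of neighbouring bins. The Bicd1 points stay above 0 in the left panel, from 0.38 to 0.97, while the Chil3 and Chil4 points run from −0.06 to 0.83.

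Pre-S cells were compared with 3 h cells by the edgeR quasi-likelihood test over all 1458577 bin pairs, with p-values adjusted by Benjamini-Hochberg (FDR, called under 5%). Contacts between the Chil3 and Chil4 start bins were stronger at pre-S (log2 change 0.36, SE 0.0785, FDR 0.00483), and so were those between the Chil4 start bin and the next (0.32, FDR 0.0442). Contacts between the first and the second Bicd1 bin were stronger by 0.49 (SE 0.135, FDR 0.0476). Those between the second and the third bin (0.41, FDR 0.190) and between the third and the fourth (0.48, FDR 0.0780) did not pass. Of all 47081 pairs of neighbouring bins, 5.16% were stronger and 0.648% weaker at pre-S, around a median of 0.07. By the size of its change the first Bicd1 pair stood at percentile 93.0 of these pairs and the Chil3 and Chil4 pair at 84.6. The percentiles moved with the scaling, to 97.8 and 98.9 with loess per distance class (changes 0.41 and 0.47), 98.8 and 61.9 with the geometric mean of coverages, 87.2 and 28.2 with their product and 90.9 and 62.8 with TMM factors.

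Neither call was independent of the settings. The Chil3 and Chil4 change was −0.31 with the product of coverages in the offsets (FDR 0.0458, weaker at pre-S, as were 16% of neighbouring bin pairs in that fit), 0.04 with their geometric mean (FDR 0.927) and −0.04 with TMM factors (FDR 0.893). Adjusted for the product of coverages, its counts were 799 and 622 (3 h), 631 and 647 (10 h), 632 and 597 (imminent division) and 563 and 558 (pre-S), with the 3 h libraries further apart than in the loess fit. The contact of the Chil4 start bin with the next turned to −0.38 with the product (FDR 0.0190), and it passed in 3 of 8 fits with 1 library left out. It also passed with loess per distance class (0.40, FDR 0.00293), and did not with thinning, no abundance filter, DESeq2, the replicate block or only the 3 h and pre-S libraries (0.25 to 0.31, FDR 0.0519 to 0.764). The first Bicd1 pair kept its direction, at 0.23 with the product (FDR 0.478), 0.36 with the geometric mean (FDR 0.260) and 0.30 with TMM factors (FDR 0.332), and none of these passed. The second and the third pair had 0.04 and 0.22 with the product (FDR 0.947 and 0.534). With only the 3 h and pre-S libraries in the fit the first Bicd1 pair had 0.48 (FDR 0.0509), which did not pass, and Chil3 and Chil4 0.35 (FDR 0.00610), which did. In balanced matrices the log2 ratios of pre-S to 3 h were 0.10, −0.045 and 0.020 for the 3 Bicd1 pairs and 0.16 for Chil3 and Chil4. The DESeq2 Wald test gave 0.50 for Bicd1 (adjusted p 0.769) and 0.36 for Chil3 and Chil4 (adjusted p 0.431). With 1 library left out, Bicd1 passed in 2 of 8 fits, those without either imminent division library, and its change ran from 0.38 to 0.61. Chil3 and Chil4 passed in 6 of 8 (0.29 to 0.42), and not without the second 3 h library (FDR 0.178) or without the first pre-S library (FDR 0.257), and the call was also lost with thinning to the shallowest library (0.30, FDR 0.0963).

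The contrasts that share libraries with the choice of the loci are given as values. Pre-S against 10 h gave 0.73, 0.60 and 0.62 for the 3 Bicd1 pairs and 0.44 for Chil3 and Chil4, where the median of neighbouring bins was 0.09. Imminent division against pre-S gave 0.23, 0.32 and 0.26 for Bicd1 and 0.24 for Chil3 and Chil4, against a median of −0.08. Between 3 h and 10 h the Bicd1 pairs were lower at 10 h, by −0.24, −0.19 and −0.14, and Chil3 and Chil4 by −0.08.

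Coverage of the Chil3 and Chil4 start bins was higher at 33 h than before. In multiples of the median bin, the interchromosomal coverage of the Chil3 start bin was 1.97 and 1.97 (3 h), 1.95 and 1.97 (10 h), 2.47 and 2.53 (imminent division) and 2.26 and 2.2 (pre-S). That of the Chil4 start bin was 1.89 and 1.99, 1.85 and 1.91, 2.53 and 2.61, and 2.2 and 2.19. Both bins stood at percentile 99.8 of all bins kept, and their groups at 33 h did not overlap those at 3 h and 10 h. The first Bicd1 bin had 1.37 and 1.46, 1.38 and 1.40, 1.53 and 1.49, and 1.41 and 1.45, with overlap between pre-S and 3 h.

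By edgeR with TMM factors, coverage at pre-S against 3 h was higher at the Chil3 start bin (log2 0.18, FDR 0.00911), the Chil4 start bin (0.18, FDR 0.0108) and the bin before them, which holds the end of Chil3 (0.25, FDR 2.6e-04). It was higher at the second and the third Bicd1 bin (0.15, FDR 0.0189, and 0.15, FDR 0.0207), and the first bin had 0.01 (FDR 0.878; 0.15 with loess offsets, where it passed) and the fourth 0.03 (FDR 0.641). Over all 47332 bins 30.9% were higher and 29% lower, so a call of this kind was common. The Chil4 call was lost in 3 of 8 fits with 1 library left out and the Chil3 call in 1. The calls of the second and the third Bicd1 bin were lost in 2 fits each, both without the first 3 h library (0.078, FDR 0.321, and 0.085, FDR 0.270). The sum of the coverage changes of the Chil3 and Chil4 start bins was 0.36 at pre-S against 3 h, beside a loess change of 0.36 and a change of −0.31 with the product of coverages. For imminent division against 10 h the sum was 0.75 beside 0.68 and −0.06. The product lowered the loess change by 0.67 at pre-S against 3 h, more than the sum of 0.36, and by 0.74 at imminent division against 10 h. At pre-S against 3 h it also moved the median of all neighbouring pairs, from 0.07 to −0.08. The −0.31 is therefore not the coverage change of these 2 bins alone. For the first Bicd1 pair the sums were 0.17 beside 0.49 and 0.23, and 0.22 beside 0.96 and 0.74. For the second Bicd1 pair the sum at pre-S against 3 h was 0.30, beside 0.41 and 0.04, and for the third 0.18, beside 0.48 and 0.22. Whether coverage accounts for the change in contact was not tested beyond these allowances.

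**Figure D3:**
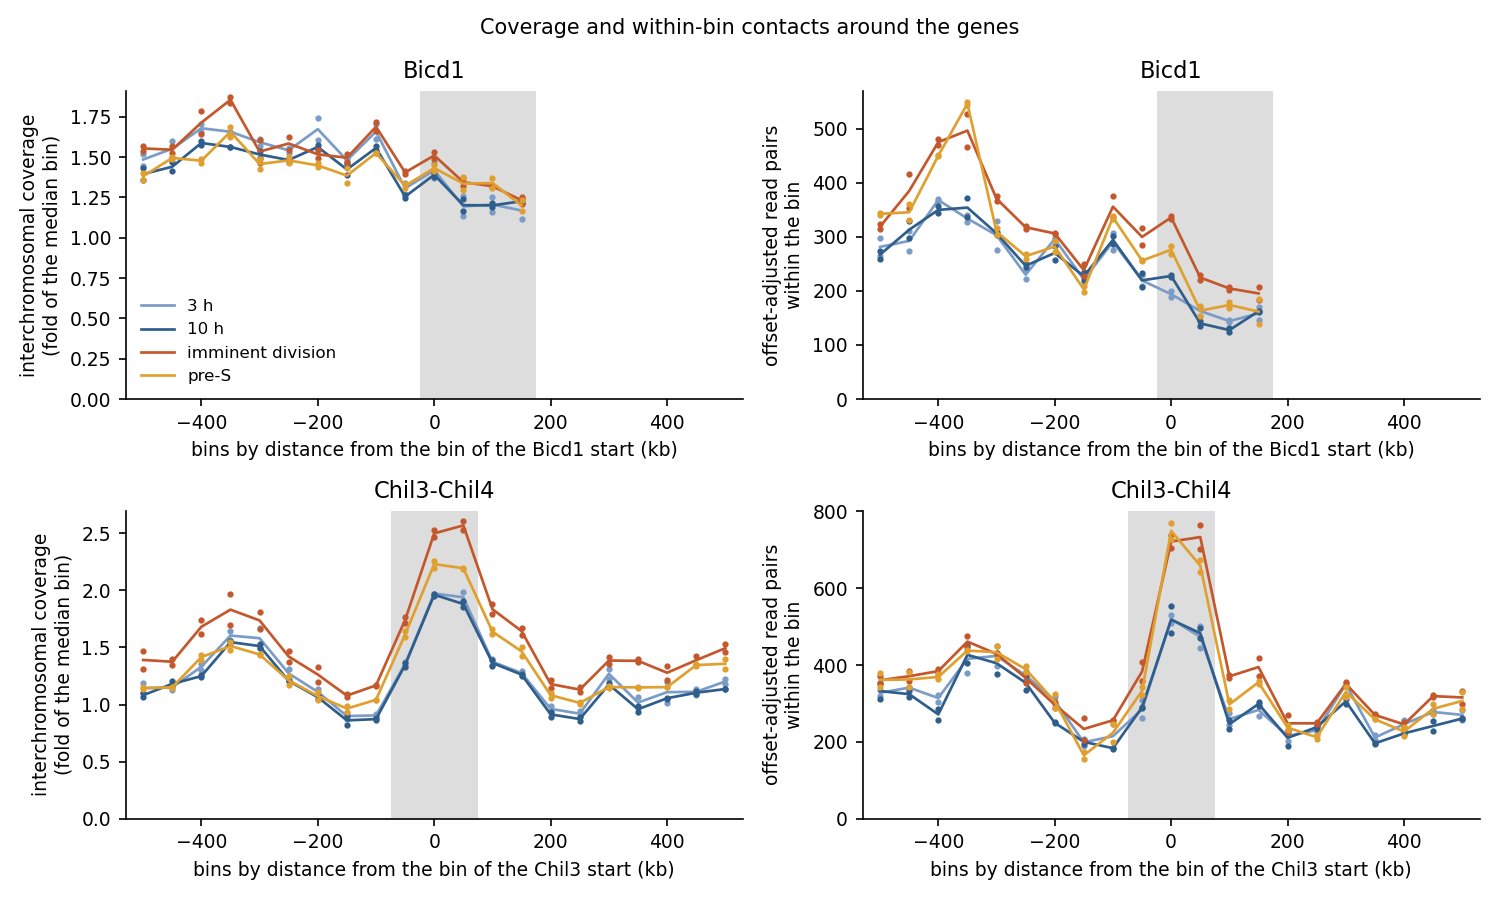
Left, interchromosomal coverage in multiples of the median bin, and right, offset-adjusted read pairs within a single bin, by distance in kb from the bin of the gene start, with points for libraries, lines for group means and the bins over the genes shaded. Coverage of the Chil3 and Chil4 start bins rises from between 1.85 and 1.99 at 3 h and 10 h to between 2.47 and 2.61 at imminent division, while that of the first Bicd1 bin stays between 1.37 and 1.53.

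Contacts within a bin, under 50 kb and off the bin-pair test, were counted apart. They come from the same bins and libraries and are not independent of the contacts between neighbours. Within the Chil3 start bin the adjusted counts were 509 and 529 for 3 h, 483 and 553 for 10 h, 738 and 705 for imminent division, and for pre-S 770 and 728. Within the Chil4 start bin they were 445 and 502, 469 and 496, 763 and 702, and 674 and 642. Within the first Bicd1 bin they were 188 and 199, 230 and 225, 338 and 334, and 268 and 284. At all 3 bins the 33 h libraries lay above the others, and at the first Bicd1 bin the 10 h libraries also lay above the 3 h libraries. The second and the third Bicd1 bin went the other way. They had 171 and 154, and 143 and 146, at 3 h, and 136 and 144, and 124 and 131, at 10 h.

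The edgeR test of pre-S against 3 h called all 3 bins higher, with a log2 change of 0.52 at Chil3 (FDR 9.3e-11), 0.46 at Chil4 (FDR 3.1e-07) and 0.49 at the first Bicd1 bin (FDR 3.5e-04), and each passed without any 1 library. Of all 47332 bins 6.43% were higher and 6.33% lower. The other Bicd1 bins did not pass, with 0.02 at the second, 0.26 at the third and −0.02 at the fourth (FDR 0.928, 0.148 and 0.941). With coverage in the offsets the change was 0.11 at Chil3 (FDR 0.406) and 0.07 at Chil4 (FDR 0.685), neither of which passed, and 0.41 at the first Bicd1 bin (FDR 0.0137), which did. With TMM factors it was 0.25 at Chil3 (FDR 0.0277), 0.20 at Chil4 (FDR 0.0896) and 0.42 at the first Bicd1 bin (FDR 0.0018). The first bin, which holds the start of Bicd1, thus passed under all 3 scalings, which differed in how common a call was. Of the 47332 bins, 550 were higher and 903 lower with coverage in the offsets. With TMM factors 7305 were higher and 5781 lower, so a pass there was less selective.

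Within the windows, 276 bin pairs around Bicd1 were tested for pre-S against 3 h, of which 3 were stronger and 0 weaker, and 827 around Chil3 and Chil4, of which 3 were stronger and 6 weaker. Over all bin pairs 0.346% were stronger and 0.334% weaker. DESeq2 called 0 in either direction in both windows, and over the genome it had 47416 bin pairs at an unadjusted p under 0.05 against 171448 by edgeR. In the Bicd1 window the other stronger bin pairs both joined bins over Dennd5b, a regulator of Rab GTPases, with a change of 0.49 between neighbours 400 and 350 kb before the Bicd1 start bin (FDR 5.2e-04) and 0.47 between bins 450 and 350 kb before it (FDR 0.0419). In the Chil3-Chil4 window the third stronger pair joined the bin of Dennd2d, Cept1 and Dram2 with one 100 kb on (0.69, FDR 0.0392). None of the 6 weaker pairs had an anchor over Chil3 or Chil4, whereas with the product of coverages 55 pairs of the window were weaker, 14 of them among the 123 with an anchor over these genes. The 6 pairs of the loess fit spanned 300 to 800 kb and included Dennd2d with Kcna3, a potassium channel gene (−1.05, FDR 0.0367), and Adora3 and Tmigd3 with Dram2 (−1.18, FDR 0.0485).

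**Figure D4:**
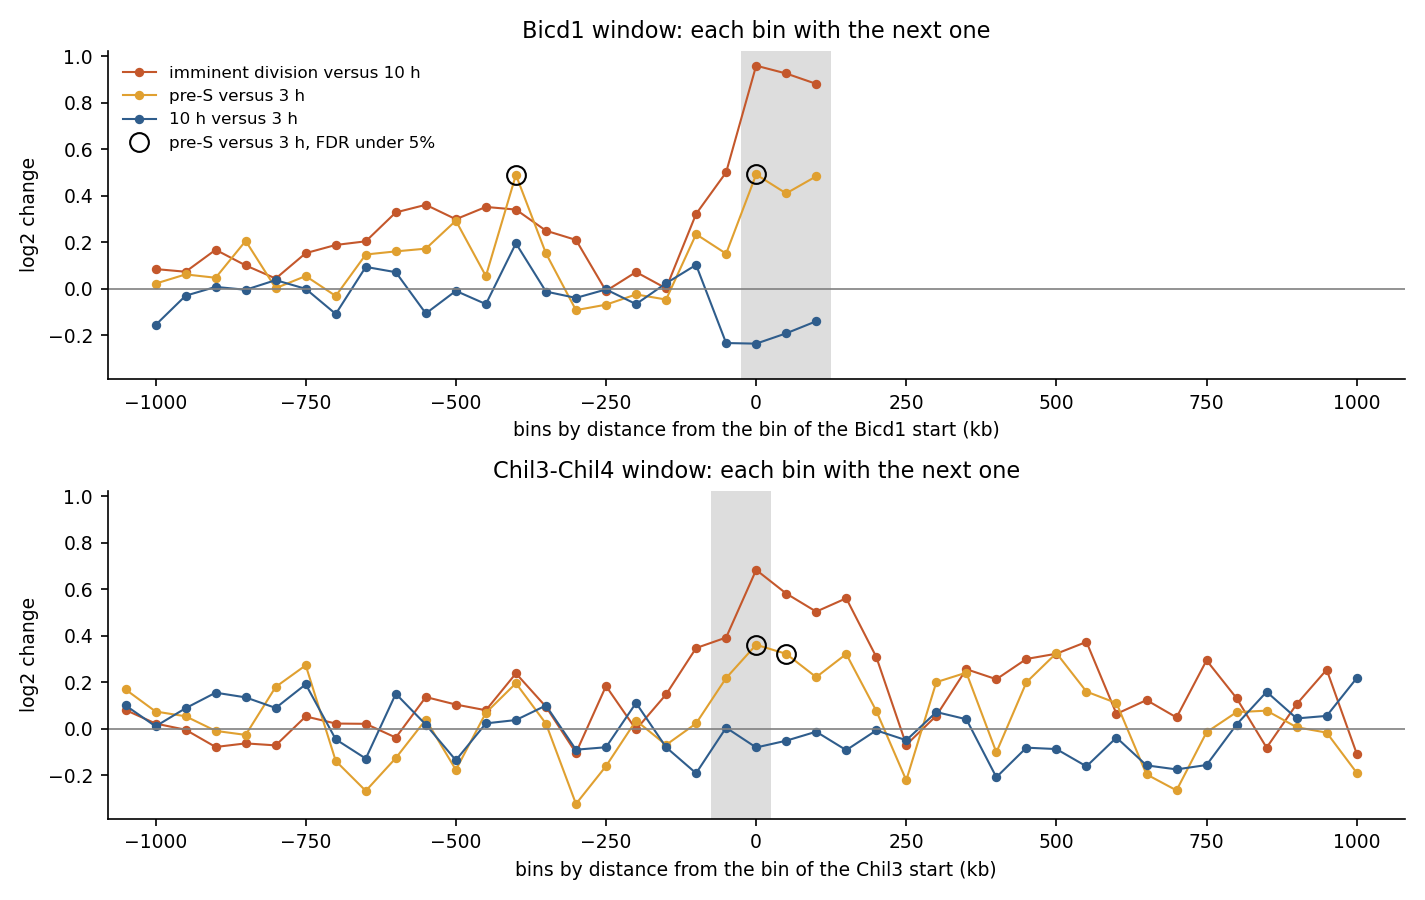
Log2 change between each bin and the next along both windows, by distance in kb from the bin of the gene start, with the bins over the genes shaded and circles on bin pairs that passed at pre-S versus 3 h (FDR under 5%). The imminent division line peaks over Bicd1 at 0.96 and over Chil3 and Chil4 at 0.68, and the circled points lie at 0.49 over Dennd5b and Bicd1 and at 0.36 and 0.32 from Chil3 onward.

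Counts past the same threshold in the rule's own contrast are given as a description. At imminent division against 10 h, 30 bin pairs of the Bicd1 window were stronger and 0 weaker, 17 of them with an anchor over the gene among 86 such pairs, beside 0.644% stronger and 1.39% weaker over all bin pairs. In the Chil3-Chil4 window 38 were stronger and 4 weaker, and 21 of the 123 with an anchor over the genes were stronger. Without the second imminent division library, or without either 10 h library, fewer pairs were stronger in both windows and also over all bin pairs. Each of these fits leaves 1 library in a group, so their counts are not given. With the product of coverages the Bicd1 window had 36 stronger and 1 weaker, and the Chil3-Chil4 window 0 stronger and 164 weaker. With the geometric mean they had 32 and 1, and 4 and 47, and by DESeq2 6 and 0, and 8 and 0. Over all 1458577 bin pairs 22272 were stronger and 33167 weaker with the product. With the geometric mean these were 13384 and 26098, and by DESeq2 39 and 204. Because the loci were chosen on this contrast, nothing is read from these counts.

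The reach of the gain was read from bin pairs with an anchor over the genes, by distance. At pre-S against 3 h the bins over Bicd1 had a median change of 0.45 over 4 pairs with a neighbour, and of 0.44 over 16 pairs 100 to 250 kb apart, of which 15 were above 0 and none passed the test singly. The medians over all tested bin pairs at these distances were 0.07 and 0.03. From 300 to 500 kb the Bicd1 median was 0.05 over 20 pairs, and from 550 kb to 1 Mb it was −0.16 over 40. In the rest of the Bicd1 window the medians of the 4 classes were 0.05, 0.04, 0.03 and 0.27, so in the longest class the rest lay above 0 and the pairs on the gene below. For the bins over Chil3 and Chil4 the medians were 0.27, −0.02, −0.11 and −0.02 over 4, 23, 30 and 60 pairs, beside 0.04, −0.03, −0.07 and −0.16 in the rest of the window. The difference in reach between the loci was not tested, and the medians by distance were made in the loess fit alone. At imminent division against 10 h, as a description, the medians were 0.90, 0.73, 0.48 and −0.18 for Bicd1 and 0.49, 0.52, 0.24 and 0.21 for Chil3 and Chil4. The bin pairs of a class share anchors and are not independent.

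**Figure D5:**
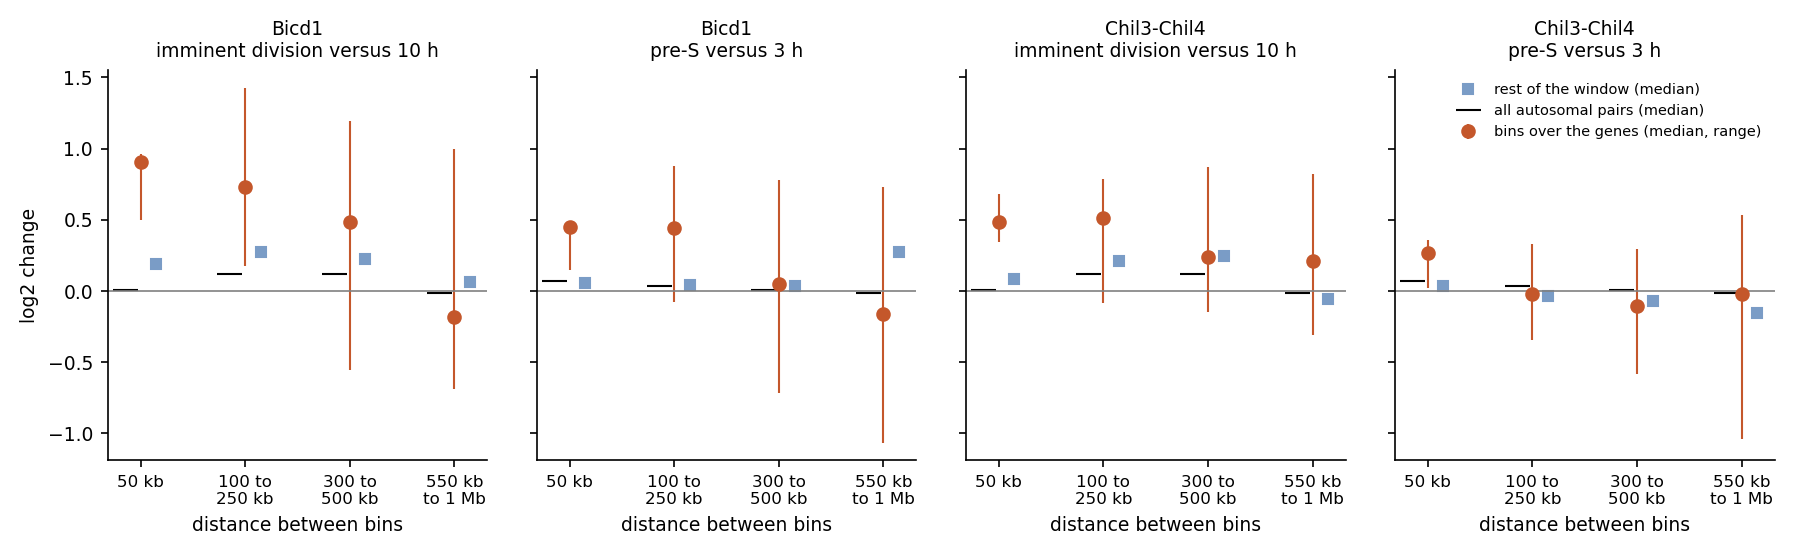
Median log2 change of bin pairs with an anchor over the genes (circles, bars from lowest to highest), of the other bin pairs of the window (squares) and of all autosomal bin pairs tested (lines), by the distance between bins. For Bicd1 the median at pre-S versus 3 h is 0.45 between neighbours, 0.44 from 100 to 250 kb, 0.05 from 300 to 500 kb and −0.16 from 550 kb to 1 Mb, while for Chil3 and Chil4 it is 0.27 between neighbours and −0.02 from 100 to 250 kb.

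Summed over these classes, contacts of the Bicd1 bins at 100 to 250 kb were 694 and 730 adjusted read pairs (3 h), 688 and 756 (10 h), 1187 and 1193 (imminent division) and 929 and 925 (pre-S). At 550 kb to 1 Mb they were 703 and 673, 691 and 681, 657 and 673, and 628 and 648. The shorter class was higher in every library at 33 h than in every earlier library, and the longer class was not. For Chil3 and Chil4 the sums at 100 to 250 kb were 3077 and 3285, 3038 and 3078, 4377 and 4379, and 3455 and 3319. Both pre-S libraries lay above both 3 h libraries there, and nearer to them than to the imminent division libraries. Of the 23 bin pairs in this sum, 11 had a change above 0 at pre-S against 3 h, with a median of −0.02.

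Contacts across Chil3 and Chil4, between the 10 bins on either side, were lower at 33 h than at 3 h relative to their chromosome, in counts without offsets. This insulation score, the log2 of the mean contact across a bin centred on its chromosome mean, was 1.80 and 1.79 for 3 h, 1.65 and 1.65 for 10 h, 1.45 and 1.58 for imminent division, and for pre-S 1.49 and 1.43 for the Chil3 start bin. By limma the difference between pre-S and 3 h was −0.33 at the Chil3 start bin (FDR 8.3e-04), −0.30 at the Chil4 start bin (FDR 0.00219) and −0.36 at the bin before (FDR 6.1e-04). Over 46342 bins 29.7% were higher and 29.6% lower. At the Chil3 start bin the score changed by −0.14 from 3 h to 10 h and by −0.14 from 10 h to imminent division. The score is not on the scale of the loess fit. There the bin pairs of the window had a median of −0.08 at pre-S against 3 h. At imminent division against 10 h that median was 0.10. In balanced matrices the Chil3 change was −0.10 (FDR 0.0229) and the Chil4 change −0.08 (FDR 0.0634). The score needs bins on either side and could not be placed at Bicd1.

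In the compartment component, whose positive side (A) holds more gene starts, Chil3 and Chil4 lay on the A side in every library, from 0.838 to 0.936 at 3 h, 0.754 to 0.929 at 10 h, 1.138 to 1.19 at imminent division and 0.696 to 0.889 at pre-S. The first and the second Bicd1 bin were also on the A side, at 0.332 and 0.383 (3 h), 0.418 and 0.482 (10 h), 0.168 and 0.386 (imminent division) and 0.136 and 0.142 (pre-S). At Bicd1 the pre-S libraries were the lowest and at Chil3 and Chil4 the imminent division libraries the highest. The component was made at 100 kb, so a pair of 50 kb bins shares each value.

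The loci differed in sequence features that the choice did not use. The sequence CCANNAGNNGGC, a short form of the motif of the architectural factor CTCF searched on both strands, had 0 matches in the 3 bins over Chil3 and Chil4, as in 16.5% of all bins kept. The 4 Bicd1 bins had 4, 5, 0 and 3 matches, where the median bin had 2 and 20.6% of bins had 5 or more. A match is a run of letters and not a bound site. The Chil3 and Chil4 start bins had 152 and 135 MboI fragments and 39.2% and 36.8% GC. The Bicd1 bins had 102, 88, 135 and 81 fragments, and the first, the second and the fourth stood at percentiles 7.03, 0.562 and 0.142 of all bins in fragment number, where the fourth is also narrower than the others and a narrower bin holds fewer fragments. Their GC was 38.5%, 38.1%, 36.6% and 36.6%.

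Relatives of the genes were read in the same way, from each start bin with its neighbours. Of 10 glycoside hydrolase 18 genes, with 16 bin pairs, 2 pairs were stronger and 0 weaker at pre-S against 3 h, and both were those of Chil3 and Chil4 given above, beside 5.16% stronger and 0.648% weaker of all neighbouring pairs, a background that holds for each list here. The list's median was −0.06, against 0.07 over all neighbouring bins. Chia1, an acidic chitinase that starts in the bin before Chil3, had 0.02 on its far side. Chil6, further along the cluster, had 0.08 and −0.22, and the genes of the family on chromosome 1, Chit1 (chitotriosidase) and Chil1, had values from −0.17 to −0.05. Of 16 dynein adaptor genes, with 32 bin pairs, 1 pair was stronger, that of Bicd1, and 1 weaker. The weaker pair was at Bicd2, the paralogue of Bicd1, with −0.38 (FDR 0.0191) on 1 side and −0.03 (FDR 0.941) on the other, and the first of these turned to 0.06 with the product of coverages. The related Bicdl1 and Bicdl2 ran from −0.19 to 0.16 and did not pass. Of 55 bin pairs at 28 autosomal genes of dynein and dynactin subunits, 0 were stronger and 1 weaker, at Actr1b, an actin-related protein of dynactin (−0.49, FDR 0.00613).

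Of neighbouring bin pairs that hold a gene start, those most like each locus over the 8 libraries were found by the root mean square difference of centred log2 adjusted counts. The nearest to the first Bicd1 pair, among 19642, were at Prl2c3, a gene of the prolactin family (0.144, r 0.955), at Chil3 and Chil4 themselves (0.158, r 0.941), at Mucl2 (0.165), at Ptf1a, a transcription factor of pancreas and neurons (0.170), and at the Hoxd cluster from Evx2 (0.170). The nearest to Chil3 and Chil4, among 19641, were at Adad1 (0.0872, r 0.958), at Zfp367 and Habp4 (0.0885), at Ckap5, a microtubule regulator of the spindle (0.0931), at the Pcdha cluster (0.0932) and at Ptf1a (0.0953). Ptf1a was among the 5 nearest of both loci. The likeness counts the libraries that chose the loci and is a description over 8 points.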

How the data were processed

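In situ Hi-C libraries (MboI) of 8 samples, 2 replicates in each of 4 groups, were analysed as separate samples. The methods describe biological duplicates, and whether they came from separate mice is not given in the sources used here, so p-values measure the spread between these samples. The authors aligned reads to mm10 with diffHic, removed duplicates and dangling ends, and deposited whole-number counts of read pairs per pair of 50 kb bins, without normalization. Bins were rebuilt from the MboI fragments of GRCm38, which is the assembly mm10. Of 48088 autosomal bins 756 were left out, for over 10% undetermined bases or coverage beyond 4-fold of the median, and 47332 kept. The ENCODE exclusion list and the centromeric and telomeric filter of the study were not used here, which matters for Bicd1 near its chromosome end.

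Bin pairs with a summed count of at least 10 and an abundance over 4-fold the interchromosomal background in 1 Mb bins were kept, without the diagonal. Counts were given loess offsets, fitted apart under 1.5 Mb, and tested in edgeR 4.0.16 (R 4.3.3) by the robust quasi-likelihood test in a one-way layout of all 8 libraries, with Benjamini-Hochberg adjustment at 5%. Counts within bins and coverage were tested by edgeR, and log2 insulation scores by limma 3.58.1. Scripts were tested on simulated data. There the bin-pair test recovered 71% of 100 changes of log2 1 and 6% of 100 changes of log2 0.5. A bin pair that did not pass may therefore still have changed. The planted changes were the only ones among 1458577 simulated bin pairs, of which 81 were called. In the data 5045 were stronger and 4873 weaker at pre-S against 3 h, so the share recovered may differ there. Alternatives were coverage in the offsets, TMM factors, loess per distance class, thinning, no abundance filter, DESeq2 1.42.0, a replicate block, only the 3 h and pre-S libraries, and leaving out each library. Sequences were aligned with blastn 2.17.0. A further marker of the sort and a further bin border sequence are not reported here. Named genes were the members, genes of the windows, the gene lists and the 5 nearest patterns of each locus. The members and lists were chosen with earlier results of these data known. Libraries held 88703088 to 218945191 read pairs, and the lower counts at Bicd1 gave larger standard errors than at Chil3 and Chil4.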

Additional observations from a re-analysis of the deposited data

How the results depend on the processing

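All changes here are log2. For the first Bicd1 pair between imminent division and 10 h, the product of coverages gave 0.74, TMM factors 0.78 and 1 library left out 0.84 to 1.07. For Chil3 and Chil4 the product gave −0.058, the geometric mean 0.31, TMM factors 0.21, loess per distance class 0.83 and 1 library left out 0.58 to 0.78. At pre-S against 3 h the first Bicd1 pair was no longer called with the product (0.23), the geometric mean (0.36), TMM factors (0.30), loess per distance class (0.41), thinning (0.46), no abundance filter (0.49, FDR 0.0509), DESeq2 (0.50) or only the 3 h and pre-S libraries (0.48), and ran from 0.38 to 0.61 with 1 library left out. Chil3 and Chil4 had −0.31, 0.036 and −0.045 with the product, the geometric mean and TMM factors, 0.30 with thinning and 0.36 with DESeq2, neither called, and 0.29 to 0.42 with 1 library left out, and the Chil4 start bin with the next had −0.38, −0.018 and −0.034 under the first 3. The causes were not tested, beyond the coverage changes given with the results. TMM factors moved the median of neighbouring bins to −0.14 and the stronger share of all calls from 50.9% to 22.3%.

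Stronger bin pairs in the Bicd1 window numbered 1 with the geometric mean or thinning, 0 with TMM factors or DESeq2 and 0 to 3 with 1 library left out, 0 being without the first pre-S library. In the Chil3-Chil4 window they numbered 0 with the geometric mean, thinning or DESeq2, 1 with TMM factors and 0 to 3 with 1 library left out. Weaker pairs there numbered 55 with the product, 10 with the geometric mean, 18 with TMM factors, 3 with thinning or loess per distance class, 0 with DESeq2 and 0 to 7 with 1 library left out. Over the genome, 5045 were stronger and 4873 weaker in the fit reported, 15598 and 19623 with the product, 2335 and 1809 with the geometric mean, 4702 and 16357 with TMM factors, 3039 and 3637 with loess per distance class, 2389 and 2242 with thinning, 50 and 140 with DESeq2, and 415 and 444 without the first pre-S library.

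Within-bin contacts with coverage in the offsets had 0.11 at Chil3, 0.067 at Chil4, −0.20 at the bin before and 0.23 at the fourth Bicd1 bin, and with TMM factors 0.20 at Chil4 and 0.21 at the fourth Bicd1 bin. With 1 library left out the second Bicd1 bin ran from −0.060 to 0.12 and the fourth from −0.24 to 0.20. The insulation change at Chil4 was −0.083 in balanced matrices. Coverage of the first Bicd1 bin was 0.15 with loess offsets, where it passed, and ran from −0.044 to 0.060 with 1 library left out, that of the fourth from −0.040 to 0.11, of Chil3 from 0.16 to 0.20 and of Chil4 from 0.13 to 0.21. In the contrasts that share libraries, the first Bicd1 pair had −0.30 at 10 h against 3 h with TMM factors, and 0.45, 0.59 and 0.60 at pre-S against 10 h with the product, the geometric mean and TMM factors. Chil3 and Chil4 had −0.22 at 10 h against 3 h and 0.031 at imminent division against pre-S with TMM factors, and at pre-S against 10 h −0.19, 0.13, 0.18 and 0.59 with the product, the geometric mean, TMM factors and loess per distance class. Among glycoside hydrolase 18 genes 0 pairs were stronger with the product, the geometric mean or TMM factors, and 6 and 4 weaker with the product and TMM factors. Among dynein adaptors 2 were stronger with the product and 0 with the geometric mean, TMM factors or loess per distance class, and 0 were weaker with the geometric mean or loess per distance class and 12 with TMM factors. Among dynein and dynactin subunits 1 was stronger with the product, and 0 were weaker with the geometric mean and 6 with TMM factors. The shares of 5.16% and 0.648% given for the lists are from the loess fit. With the product 16% of all neighbouring pairs were weaker. With TMM factors the median of all neighbouring pairs was −0.14. The share called with TMM factors is not given, so nothing is read from these list counts.

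Replicate numbers did not pair the libraries, since deviations from the group means of same-numbered libraries correlated from −0.15 to 0.043. With the replicate block the first Bicd1 pair had 0.49 (FDR 0.0672), the Bicd1 window 1 stronger pair, the glycoside hydrolase 18 genes 1, the dynein adaptors 0, the within-bin change of the fourth Bicd1 bin was 0.020, and the genome had 3744 stronger and 3820 weaker pairs. The alternatives for the contrasts that share libraries, the gene lists and the other neighbouring pairs were chosen after seeing the data. The first Bicd1 pair had as few as 80 read pairs in a library.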
